A study of Mus musculus with 4 samples.

Results

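A set of 10 genes that mark epithelial, bile duct and mesenchymal cells were followed in liver tumours of mice fed a gut bacterium or buffer. The genes were chosen by name: Epcam, Cdh1, Krt7, Krt8, Krt18 and Krt19 (epithelial), Sox9 and Prom1 (ductal and progenitor), and Cdh2 and Vim (mesenchymal). All 10 were found among the 48526 gene identifiers counted, and all 10 were among the 17479 genes kept by a filter on low counts. Bulk RNA sequencing was done on 4 liver tumour libraries from C57BL/6 mice, of which PBS 1 and PBS 2 came from the PBS-fed group and AKK 1 and AKK 2 from the group fed Akkermansia muciniphila, a gut bacterium that degrades mucin (2 libraries per group). Per the series' design text, mice received 5000000000 colony-forming units of the bacterium or PBS for 2 weeks before and during 2 weeks of a methionine- and choline-deficient diet, which produces fatty liver. Both groups then received RIL-175, a hepatoma line of the mouse that carried luciferase, in the liver; oral feeding stopped for 6 days and went on afterwards to the end. Each tumour therefore holds cells of 1 implanted line together with cells of the host. The ages of the mice are not given in the labels, nor whether replicates of a group came from separate mice, so p-values measure only the spread between these samples.

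The libraries held 48912489 to 59027227 reads on genes. Levels are given as CPM (counts of a gene scaled to a common total of reads on genes) after TMM scaling between libraries. A gene with 0 reads may have up to 3, or 0.0514 to 0.0631 CPM, a limit for counting error only. The deposited tables are named in one way for PBS and in another for AKK, and any cohort these names may mark cannot be told apart from feeding. In bulk tumours, fewer cells of a type and less RNA per cell cannot be told apart either. Of the 16 hepatocyte markers, 12 and 9 had under 10 reads in PBS 1 and PBS 2 and 0 had in AKK. Their summed level was 317 and 756 CPM in PBS and 761 and 765 CPM in AKK, and albumin (Alb) read 0.2999 and 0.988 CPM in PBS against 156 and 25.4 CPM in AKK. In PBS most of the summed level was Apob (241 and 584 CPM) and Hnf4a (74.9 and 168 CPM). Their log2 fold changes, AKK minus PBS, were -0.38 and -0.54. Both AKK libraries lay above both PBS libraries in 14 of the 16 markers, where 26.7% of all genes did so. The median over the 16 was 6.49, and DESeq2 called 14 higher, against 5.12% of all genes. Markers with under 10 reads in both PBS libraries passed the filter only through AKK. PBS 1 also held more skeletal muscle RNA, at 295 CPM summed over 8 markers against 5.10 to 10.4 CPM in the other libraries.

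Epithelial cells are held in sheets by adherens junctions, in which the cadherin E-cadherin (Cdh1) binds its like on the neighbouring cell, and their cytoskeleton is built from keratin pairs of a type I and a type II chain. Hepatocytes carry the simple pair Krt8 and Krt18, whereas bile duct cells (cholangiocytes) add Krt7 and Krt19, the adhesion molecule Epcam and the transcription factor Sox9. In epithelial-mesenchymal transition, factors of the Snail, Zeb and Twist families bind E-box letters in epithelial promoters and repress them, while N-cadherin (Cdh2) and the filament protein vimentin (Vim) increase.

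To show where such letters lie, the windows from 250 bases before to 50 bases after the gene start were read from the RefSeq promoter table (GRCm38.p6), which held 6 of the 10 genes. The motif searched was CACCTG, which reads CAGGTG on the other strand, so that a match on either strand is the same site. It is written in capitals in the windows of Epcam, the gene with the largest relative difference between groups, of Krt7, which differed most between replicates, and of the partner genes Krt8 and Krt18.
Epcam, chr17:87635729-87636028, plus strand: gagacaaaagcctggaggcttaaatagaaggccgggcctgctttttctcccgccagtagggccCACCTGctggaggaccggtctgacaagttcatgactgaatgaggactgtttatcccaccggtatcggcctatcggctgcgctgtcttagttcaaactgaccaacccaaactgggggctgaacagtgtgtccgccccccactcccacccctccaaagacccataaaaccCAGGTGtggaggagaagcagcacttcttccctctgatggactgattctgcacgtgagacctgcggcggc
Krt7, chr15:101412153-101412452, plus strand: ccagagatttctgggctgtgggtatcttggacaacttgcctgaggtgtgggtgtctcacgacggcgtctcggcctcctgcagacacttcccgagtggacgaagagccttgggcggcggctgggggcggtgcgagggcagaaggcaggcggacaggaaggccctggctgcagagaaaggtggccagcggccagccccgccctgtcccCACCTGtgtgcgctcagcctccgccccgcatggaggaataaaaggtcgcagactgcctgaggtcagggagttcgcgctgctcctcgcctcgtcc
Krt8, chr15:102004293-102004592, minus strand: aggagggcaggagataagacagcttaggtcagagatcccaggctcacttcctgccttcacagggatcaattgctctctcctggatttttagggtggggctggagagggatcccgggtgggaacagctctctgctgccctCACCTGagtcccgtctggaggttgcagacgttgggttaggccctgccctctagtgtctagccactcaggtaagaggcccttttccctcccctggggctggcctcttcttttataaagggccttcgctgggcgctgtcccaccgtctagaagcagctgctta
Krt18, chr15:102027966-102028265, plus strand: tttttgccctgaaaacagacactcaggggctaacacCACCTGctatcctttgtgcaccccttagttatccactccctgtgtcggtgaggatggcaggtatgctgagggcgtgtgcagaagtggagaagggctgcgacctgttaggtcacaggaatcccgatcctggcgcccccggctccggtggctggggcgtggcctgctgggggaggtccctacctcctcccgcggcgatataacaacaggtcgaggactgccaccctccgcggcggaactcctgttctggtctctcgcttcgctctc

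Epcam held 2 matches, which began 187 and 19 bases before the gene start. Krt7, Krt8 and Krt18 each held 1, at 44, 111 and 214 bases before the start. Of all 32851 windows in the table, 20.2% held the motif and 2.88% held 2 or more matches. One of the windows of Prom1 also held it and that of Vim did not. A match of these letters is a description of the sequence and not a measured binding site.

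Epcam, which encodes the epithelial cell adhesion molecule, lay near 0 in the PBS tumours and was present at a low level in both AKK tumours. It had 7 and 1 reads in PBS 1 and PBS 2 and 127 and 197 reads in AKK 1 and AKK 2. In CPM these are 0.131, 0.0210, 2.25 and 3.37. The groups did not overlap, and the AKK mean (2.81 ± 0.797 CPM, SD, n = 2) was 36.9-fold the PBS mean (0.0761 ± 0.0779 CPM, SD, n = 2). The fitted log2 fold change, AKK minus PBS, was 5.13 (SE 0.83). In the quasi-likelihood test of edgeR its adjusted p was 0.182, so it did not pass 0.05, where 0.00572% of all genes tested passed. DESeq2 called it (adjusted p = 3.79e-07), in a test that called 5.12% of genes. With so few reads in PBS the gene passed the filter on low counts only through its AKK libraries, so it could be tested only because it was high there. Epcam lay higher in AKK in 13 of 13 alternative analyses. The log2 fold change was 6.91 without PBS 1 and 4.37 without PBS 2. Its edgeR adjusted p was 0.00635 without PBS 1 and 0.0439 without PBS 2, against 0.615 without AKK 1 and 0.157 without AKK 2. Of the 16 hepatocyte markers given above, 14 also lay higher in AKK. The part of these markers' cells in the Epcam difference was not tested.

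Cdh1, the E-cadherin gene, was abundant in all 4 tumours and did not follow Epcam. It read 154 and 460 CPM in PBS 1 and PBS 2 and 205 and 279 CPM in AKK 1 and AKK 2. Both AKK values lay between the PBS values, and the 2.98-fold gap between the PBS tumours exceeded any difference between groups (log2 fold change -0.34, SE 0.51, edgeR adjusted p = 0.763). Cdh2, the N-cadherin gene, which normal hepatocytes also express, read 97.2 and 164 CPM in PBS against 87.4 and 163 CPM in AKK. One library of each group was low and the other high, and the log2 fold change was -0.06 (SE 0.38, edgeR adjusted p = 0.949). The direction of both cadherin genes turned without PBS 2 (log2 fold change 0.62 for Cdh1 and 0.34 for Cdh2), and that of Cdh2 also without AKK 1 (0.32), so neither has a settled sign.

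**Figure D1:**
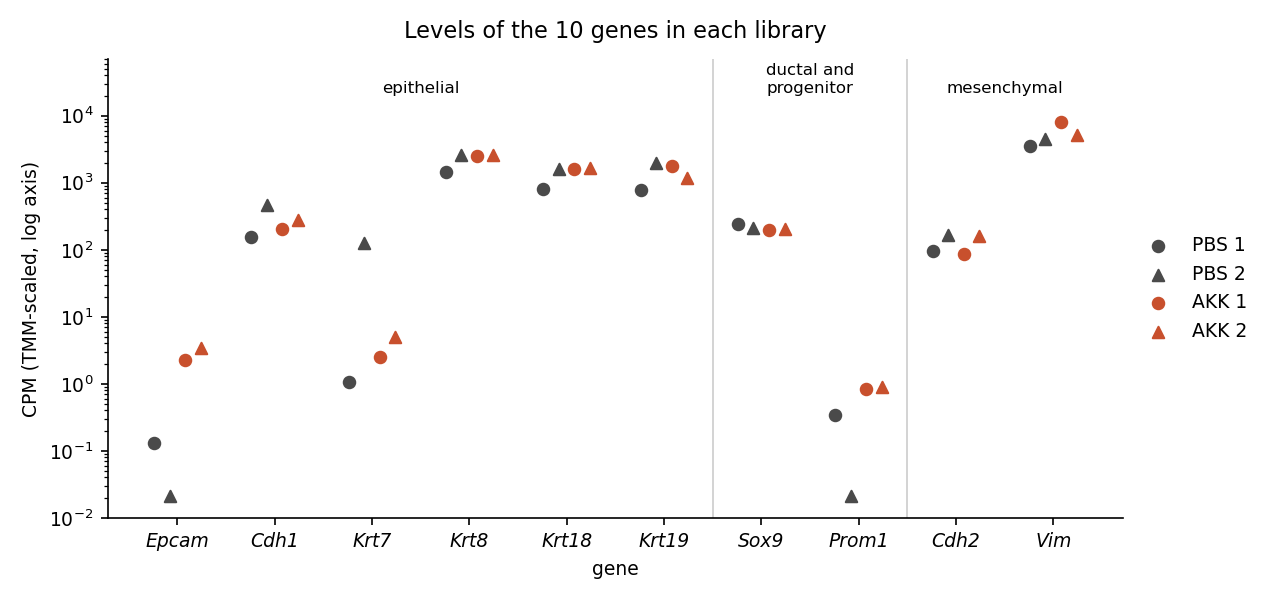
Levels of the 10 genes in each library, in TMM-scaled CPM on a log axis. Points are single libraries, grey for PBS and orange for AKK, with circles for replicate 1 and triangles for replicate 2. Epcam and Prom1 sit higher in both AKK libraries, Krt7 is high only in PBS 2, and the keratins Krt8, Krt18 and Krt19 are lowest in PBS 1.

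Krt8 and its partner Krt18 were among the most abundant of the 10 genes, and PBS 1 was the library that stood apart. Krt8, the type II chain, read 1443 and 2632 CPM in PBS 1 and PBS 2 and 2511 and 2610 CPM in AKK 1 and AKK 2. Krt18, the type I chain, read 807 and 1631 CPM in PBS and 1594 and 1677 CPM in AKK. In both genes PBS 2 lay within or close to the AKK values, and PBS 1 lay far below the other 3 libraries. The log2 fold changes were 0.33 (SE 0.38) and 0.42 (SE 0.39), with edgeR adjusted p of 0.693 and 0.617. Without PBS 1 they were -0.04 and 0.00.

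The partner genes kept nearly the same proportion in every tumour. The ratio of Krt8 to Krt18 reads was 1.79 and 1.61 in PBS and 1.58 and 1.56 in AKK. Per kilobase of exon, Krt8 exceeded Krt18 by 1.31 and 1.18 times in PBS and by 1.16 and 1.14 times in AKK. Krt8 has a processed copy, Krt8-ps, whose own count was 0.144 to 0.184% of that of Krt8.

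Krt19, a type I keratin of bile ducts that mesothelium also makes, lay below Krt18 per kilobase in every library, at 0.757 and 0.927 times its level in PBS and 0.851 and 0.536 times in AKK. It read 788 and 1952 CPM in PBS 1 and PBS 2 and 1752 and 1160 CPM in AKK 1 and AKK 2. The AKK values lay between the PBS values (log2 fold change 0.09, SE 0.49, edgeR adjusted p = 0.943), and the direction turned without PBS 1 (-0.43) and without AKK 1 (-0.23).

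Krt7, the type II keratin that pairs with Krt19 in bile ducts, was high in a single tumour. It had 57 and 5993 reads in PBS 1 and PBS 2 and 140 and 292 reads in AKK 1 and AKK 2. These are 1.07, 126, 2.48 and 5.00 CPM, so that PBS 2 exceeded PBS 1 by 118 times while the AKK tumours differed by 2.02 times. The log2 fold change of -4.09 (SE 1.78, edgeR adjusted p = 0.346) rested on PBS 2. Without that library it was 1.78 (edgeR adjusted p = 0.378), and without PBS 1, with PBS 2 alone in its group, it was -5.07 (edgeR adjusted p = 2.04e-05).

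Of the keratin family, 4 simple-epithelial members made up most of the keratin reads in each library. Of 55 keratin genes, 26 had at least 10 reads in some library and 23 of these passed the filter. Krt8, Krt18, Krt19 and Krt20 made up 97.4 and 97.3% of keratin CPM in PBS and 98.0 and 98.5% in AKK. Krt20, best known from intestinal epithelium, read 867 and 1070 CPM in PBS and 905 and 716 CPM in AKK. Summed per kilobase, the type I genes Krt18, Krt19 and Krt20 exceeded the type II genes Krt7 and Krt8 by 1.95 and 2.01 times in PBS and by 1.97 and 1.62 times in AKK, lowest in AKK 2.

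At lower levels, 3 of the 23 keratins that passed the filter separated the groups and were called by DESeq2, though not by edgeR. Of all genes, DESeq2 called 5.12%, and 26.7 and 24.7% lay above or below both PBS libraries. Krt13 also lay above both PBS libraries and Krt39 below both, and DESeq2 called neither. The 3 keratins were singled out after their values were seen. Krt76 read 3.86 and 5.85 CPM in PBS against 40.9 and 16.5 CPM in AKK (edgeR adjusted p = 0.182, DESeq2 adjusted p = 2.79e-05), and Krt79 read 0.862 and 0.673 against 3.31 and 5.43 CPM (edgeR adjusted p = 0.182, DESeq2 adjusted p = 0.000150). Krt16, a keratin of stratified epithelium, lay lower, at 1.27 and 2.73 CPM in PBS against 0.212 and 0.274 CPM in AKK (edgeR adjusted p = 0.184, DESeq2 adjusted p = 0.00178). As single-library values, the squamous keratins Krt5, Krt14 and Krt1 were found mainly in PBS 1. They had 118, 141 and 74 reads there against at most 13 reads in any other library. Krt13 and Krt15, also listed as squamous markers, did not follow this. Krt13 read 1.91 and 3.85 CPM in PBS and 7.61 and 4.90 CPM in AKK. Krt15 read 3.58 and 6.81 CPM in PBS and 4.33 and 2.29 CPM in AKK. Krt6a did not follow the groups, at 61.3 and 21.9 CPM in PBS and 58.7 and 16.05 CPM in AKK.

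**Figure D2:**
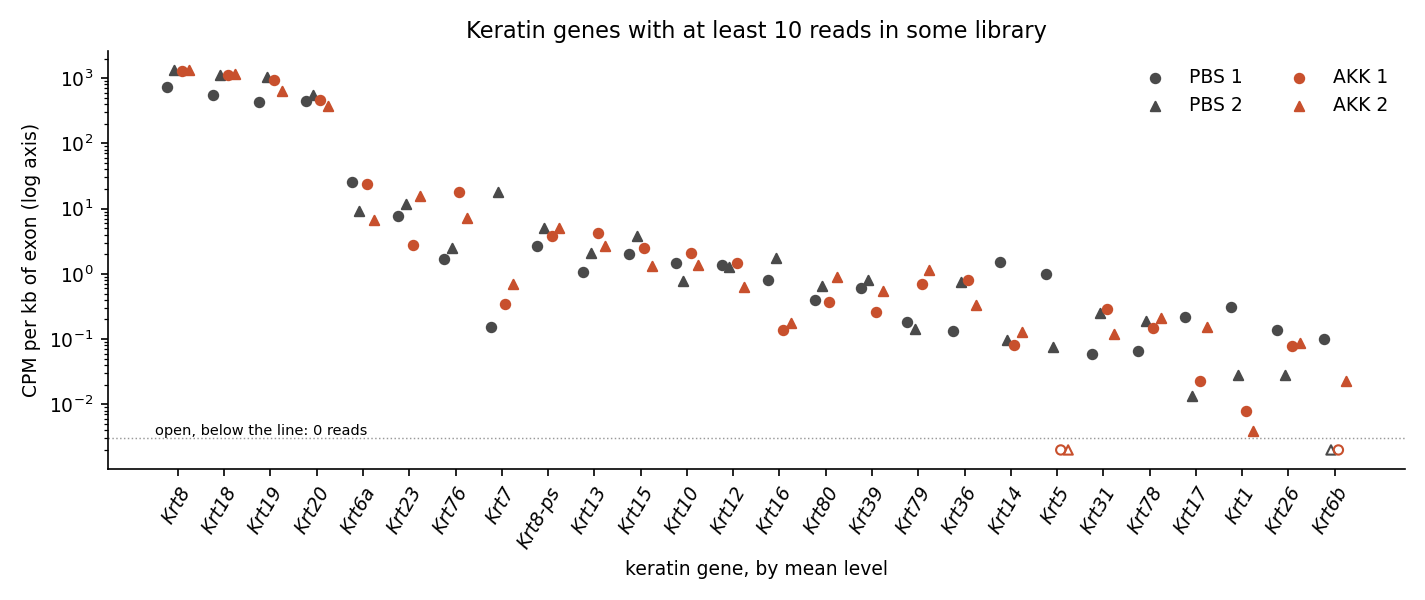
Keratin genes with at least 10 reads in some library, in CPM per kilobase of exon on a log axis, ordered by mean level. Points are single libraries, grey for PBS and orange for AKK, with circles for replicate 1 and triangles for replicate 2, and open symbols under the dotted line mark 0 reads. Krt8, Krt18, Krt19 and Krt20 stand above every other keratin in each library.

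Sox9, a transcription factor of bile duct cells, was the steadiest of the 10 genes. It read 246 and 208 CPM in PBS 1 and PBS 2 and 199.99 and 204 CPM in AKK 1 and AKK 2. Both AKK values lay just below both PBS values (log2 fold change -0.17, SE 0.20, edgeR adjusted p = 0.690). Prom1, which encodes the surface protein CD133 of progenitor and duct cells, was scarce. Its reads numbered 18 and 1 in PBS against 47 and 52 in AKK, or 0.337, 0.0210, 0.832 and 0.891 CPM. The AKK values exceeded both PBS values (log2 fold change 2.23, SE 0.99, edgeR adjusted p = 0.353, DESeq2 adjusted p = 0.353), and the fold change was 5.21 without PBS 1 and 1.32 without PBS 2. Like Epcam, it passed the filter only through its AKK libraries.

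Vim, an intermediate filament of mesenchymal cells that leukocytes and endothelium also make, had the highest CPM of the 10 genes in every library. It read 3569 and 4480 CPM in PBS 1 and PBS 2 and 8035 and 5084 CPM in AKK 1 and AKK 2. Both AKK tumours lay above both PBS tumours, with AKK 1 well above AKK 2. The log2 fold change was 0.70 (SE 0.41) and did not pass (edgeR adjusted p = 0.444, DESeq2 adjusted p = 0.244), and it was 0.34 without AKK 1. Markers of other cell types that express Vim were read beside it. The summed endothelial markers read 104 and 71.5 CPM in PBS against 34.4 and 33.1 CPM in AKK, and the summed leukocyte markers read 307 and 239 CPM against 174 and 188 CPM. The summed fibroblast and stellate cell markers read 2168 and 768 CPM in PBS and 981 and 1476 CPM in AKK, and the part of these cells in the Vim level was not tested.

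Across the 10 genes, edgeR called 0 and DESeq2 called 1 (Epcam). In edgeR without adjustment, 1 gene (Epcam) had a p under 0.05, against 15.3% of all genes (6.7% higher and 8.62% lower in AKK). Both AKK libraries lay above both PBS libraries in 3 genes (Epcam, Prom1 and Vim) and below both in 1 (Sox9), where 26.7 and 24.7% of all genes did so. The 3 of 10 genes above are near that background share, and the 1 below is under it. The median log2 fold change was 0.21 over the 10 genes and 0.02 over all genes kept. It was -0.05 without PBS 1 and 0.85 without PBS 2.

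**Figure D3:**
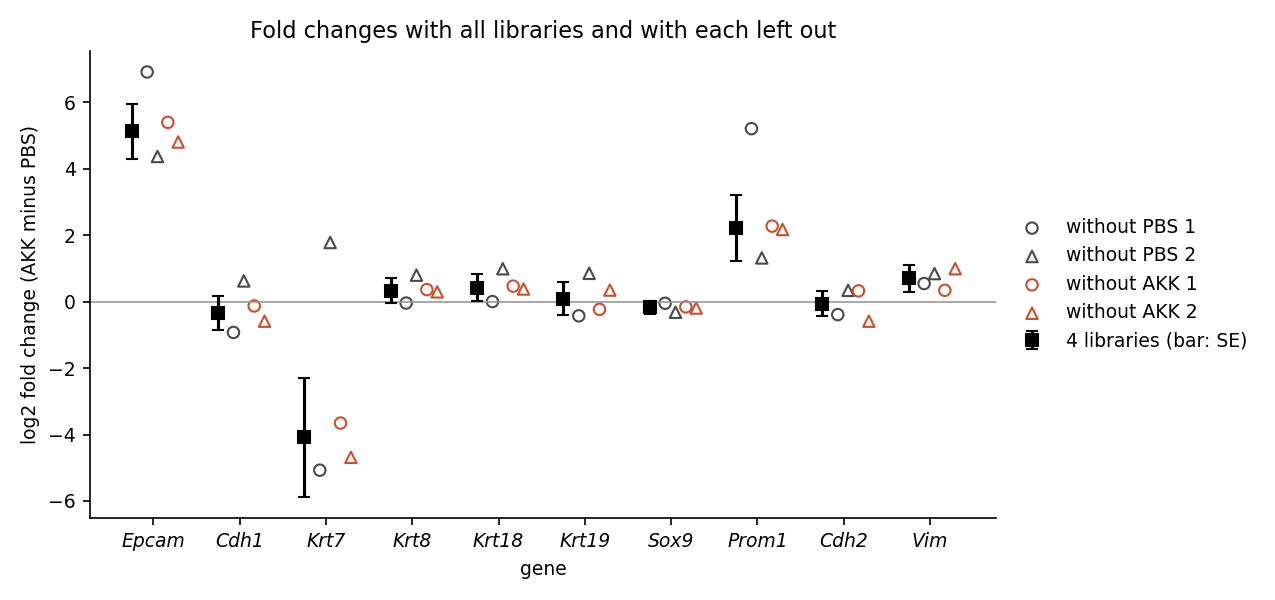
Log2 fold changes (AKK minus PBS) of the 10 genes. Black squares with bars give the fit to 4 libraries with its SE, and open symbols give the fit with 1 library left out. Epcam, Prom1, Vim and Krt18 stay above 0, with Krt18 at 0.0022 without PBS 1. Sox9 and most values of Krt7 lie below 0, and Krt7 turns positive without PBS 2.

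Levels can be compared between genes only per length, and CPM per kilobase of exon was used for this, with exon lengths from GENCODE M21. These lengths join all annotated exons of a gene and can exceed that of a single transcript. They were 7049 bases for Krt7, 2195 for Epcam, 4743 for Vim and 1958 for Krt8, so the order of genes depends on them. In PBS 2 and AKK 2, Krt8 came first (1344 and 1333 CPM per kilobase), and in PBS 1 and AKK 1, Vim did (752 and 1694). In CPM, without length, Vim came first in every library. In each library the 4 genes Vim, Krt8, Krt18 and Krt19 filled the first 4 places, Sox9 and Cdh1 the next, and Cdh2 the place after these. Krt8 and Krt18 changed places in no library, whereas the order of Sox9 and Cdh1 differed between replicates of both groups. Epcam came below Krt7 in PBS (0.0598 against 0.152, and 0.00958 against 17.9 CPM per kilobase) and above it in AKK (1.02 against 0.351, and 1.54 against 0.709). The order in AKK rested on the lengths, since in CPM Krt7 exceeded Epcam in both AKK libraries (2.48 against 2.25, and 5.00 against 3.37).

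The duct markers thus did not run together in these tumours. Of the 10 cholangiocyte markers, Krt19, Sox9, Tspan8 and Bicc1 were well expressed in all libraries, with Tspan8, a membrane tetraspanin, at 93.1 and 145 CPM in PBS and 81.8 and 138 CPM in AKK. Epcam and Krt7 were scarce outside the libraries named above, and no read of the secretin receptor gene Sctr was counted in PBS, against 36 and 9 in the AKK pair. The label of the 10 genes as cholangiocyte identity genes is therefore met by part of them.

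To set epithelial against mesenchymal genes within a tumour, the log2 ratio of the reads of 2 genes was taken in each library, which does not depend on scaling between libraries. Cdh1 over Cdh2 was 0.67 and 1.49 in PBS 1 and PBS 2 and 1.23 and 0.78 in AKK 1 and AKK 2. The AKK values lay between the PBS values, and the group means differed by -0.07 against a pooled SD of 0.47 (n = 2 per group). Krt8 over Vim was -1.31 and -0.77 in PBS and -1.68 and -0.96 in AKK, and the groups overlapped (difference -0.28, pooled SD 0.45). Epcam over Vim was -14.63 and -17.12 in PBS and -11.80 and -10.55 in AKK, a difference of 4.70 against a pooled SD of 1.39. Of the 3 ratios, that of Epcam alone separated the groups, which restates the Epcam difference given above. With 7 and 1 Epcam reads in PBS, its size depends on the prior count (4.08 with a prior count of 2). With 2 libraries against 2, an exact permutation test cannot go below p = 0.3333, and none was made.

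**Figure D4:**
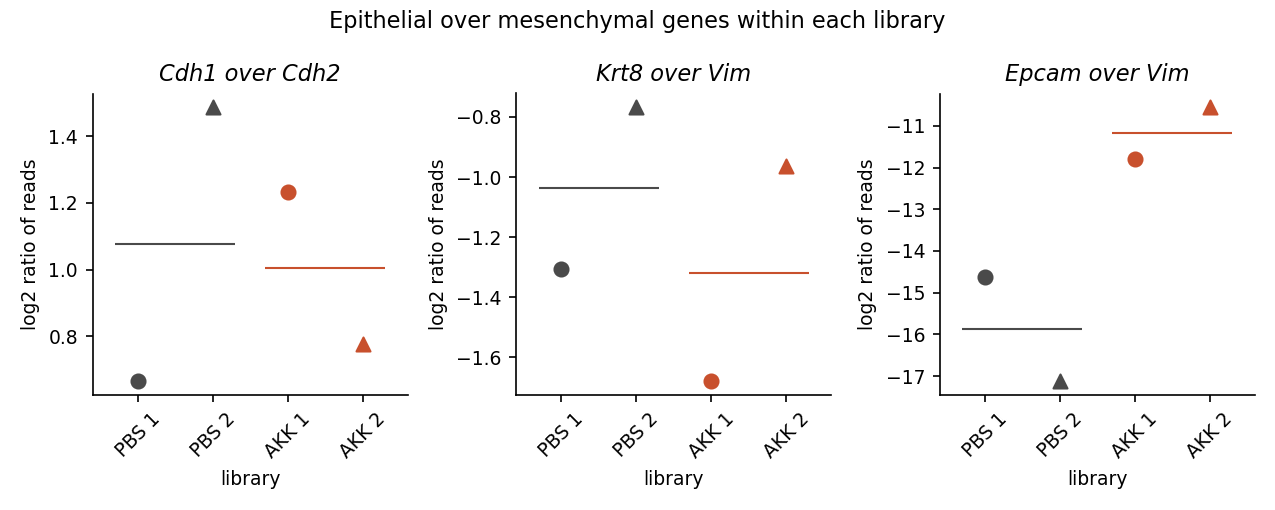
Log2 ratio of the reads of an epithelial and a mesenchymal gene in each library, with grey for PBS, orange for AKK and a line at each group's mean. The y axes differ between panels and do not start at 0. Cdh1 over Cdh2 and Krt8 over Vim overlap between the groups, and Epcam over Vim does not.

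The other genes of these pathways were taken from 7 lists, which hold 127 genes besides the 10. Of these, 115 passed the filter. EdgeR called 0 of them, where 0.00572% of all genes passed. At an unadjusted edgeR p under 0.05, 18 of the 115 lay higher and 17 lower, where 6.7 and 8.62% of all genes did so. DESeq2 called 7 higher and 9 lower, or 14.2% of those it tested, against 5.12% of all genes. Of those called higher, Dsc2, Cldn7, Cldn3 and Dcdc2a passed the filter only through their AKK libraries. Dlk1, called lower, passed it only through its PBS libraries. Calls of such genes give no support to a direction. The lists were chosen with earlier results of these data known, so their share is a description and no test.

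The 28 junction genes of epithelia centred on a median of 0.32 on the log2 fold change scale, 17 being positive. Of them 11 lay above both PBS libraries and 3 below both, where 26.7 and 24.7% of all genes did. The 3 with the smallest p were all scarce. For Dsc2, a desmosomal cadherin, the PBS libraries held 3 and 5 reads and the AKK libraries 109 and 77 (log2 fold change 4.30, edgeR adjusted p = 0.182, DESeq2 adjusted p = 8.27e-05). The claudins Cldn7 and Cldn3, which seal tight junctions, had 1 and 1 reads against 28 and 40, and 0 and 10 reads against 158 and 98 (edgeR adjusted p = 0.182 and 0.232, DESeq2 adjusted p = 0.0255 and 0.00299). All 3 lay near 0 in PBS, so that, like Epcam, they passed the filter through their AKK reads. These 3 genes therefore give no support to a direction of the list. The value of Cldn7 depended on strand, with a log2 fold change of 4.74 on own-strand counts and 1.44 on unstranded counts (edgeR adjusted p = 0.290). That of Cldn3 was 3.39 without PBS 1 and 9.96 without PBS 2.

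Epithelial regulators and proteases had a median of 0.55, with 13 of 18 kept genes positive, 9 above both PBS libraries and 1 below both, where 26.7 and 24.7% of all genes did so. The median was 1.12 without PBS 1 and 1.16 without PBS 2, with 21 genes tested in each, and 0.34 without AKK 1. For Esrp1, a splicing factor of epithelial cells, 1 and 0 reads were counted in PBS against 28 and 23 in AKK (edgeR adjusted p = 0.182, DESeq2 adjusted p = 0.0716). Ehf, an epithelial factor of the ETS family, read 1.35 and 2.59 CPM in PBS against 6.44 and 12.6 CPM in AKK (edgeR adjusted p = 0.195, DESeq2 adjusted p = 0.000950). Lcn2, the secreted lipocalin that inflamed epithelia, hepatocytes and neutrophils make, read 2.08 and 0.273 CPM against 32.01 and 21.5 CPM (edgeR adjusted p = 0.182, DESeq2 adjusted p = 1.66e-07). The fold changes of Esrp1 and Lcn2 moved with the PBS libraries, to 7.60 and 6.60 on the log2 scale without PBS 1 and to 4.38 and 3.65 without PBS 2. Esrp1 passed the filter only through its AKK libraries.

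Genes of the cadherin-catenin complex had a median of -0.28, with 12 of 17 negative, and the median was 0.00 without PBS 2 and -0.02 without AKK 1. The 3 with the smallest p lay lower in AKK. Cdh11, a cadherin of fibroblasts, read 18.3 and 6.67 CPM in PBS against 1.24 and 1.52 CPM in AKK (log2 fold change -3.18, and -2.27 without PBS 1, edgeR adjusted p = 0.182, DESeq2 adjusted p = 1.12e-06), and the endothelial Cdh5 read 24.3 and 16.7 against 7.45 and 7.76 CPM (0.182 in edgeR, 0.000747 in DESeq2). Cdh6 read 684 and 408 CPM in PBS against 165 and 256 CPM in AKK (edgeR adjusted p = 0.218, DESeq2 adjusted p = 0.00805). The level of Cdh1 is set in context by the cadherin Cdh17 of intestine and fetal liver. Per kilobase, Cdh17 made up 38.0 and 51.1% of 8 cadherin genes in PBS and 54.9 and 56.3% in AKK. Cdh1 made up 12.7 and 24.8% in PBS and 21.4 and 19.8% in AKK. Cdh2 made up 4.55 and 5.03% in PBS and 5.16 and 6.55% in AKK. Shares also depend on the other cadherins, of which Cdh6, Cdh5 and Cdh11 lay lower in AKK. The level of Cdh17 itself overlapped between groups, at 450 and 926 CPM in PBS and 515 and 778 CPM in AKK (log2 fold change -0.09, edgeR adjusted p = 0.933).

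The transcription factors of epithelial-mesenchymal transition did not move in 1 direction, with 5 of 11 positive and a median of -0.07, which was 0.02 without AKK 1 and 0.04 without AKK 2. Twist1 lay lower in AKK, at 4.07 and 1.53 CPM in PBS against 0.177 and 0.274 CPM (log2 fold change -3.62, and -2.75 without PBS 1, edgeR adjusted p = 0.182, DESeq2 adjusted p = 0.000110). Its relative Twist2 exceeded both PBS values, with 34.5 and 24.03 against 52.9 and 37.4 CPM, and so did Foxc2, at 0.450 and 0.336 against 0.920 and 1.13 CPM, but neither passed in edgeR (adjusted p = 0.348 and 0.301) or DESeq2 (0.359 and 0.348). Snai1, Snai2 and Zeb1 are named here after their values were seen. The groups overlapped for Snai2 and Zeb1, and both AKK values of Snai1 lay above both PBS values (log2 fold change 0.74, edgeR adjusted p = 0.492). Snai1 read 5.29 and 2.23 CPM in PBS against 5.98 and 6.56 CPM in AKK, Snai2 5.23 and 8.28 against 7.13 and 5.74 CPM, and Zeb1 106 and 117 against 64.5 and 113 CPM.

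Mesenchymal genes had a median of -0.05, with 8 of 20 positive. The median was 0.22 without PBS 1 and 0.11 without AKK 1, against -0.23 without PBS 2 and -0.36 without AKK 2. Tagln, an actin-binding protein of smooth muscle, read 9.63 and 6.92 CPM in PBS against 13.1 and 19.2 CPM in AKK (edgeR adjusted p = 0.283, DESeq2 adjusted p = 0.122). The gelatinase gene Mmp2 read 39.7 and 8.20 CPM against 4.72 and 7.71 CPM, a difference carried by PBS 1 (log2 fold change -1.95, and -0.40 without PBS 1). Vim and Tagln thus lay higher and Cdh11 and Mmp2 lower in AKK.

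Cholangiocyte genes had a median of -0.12, with 10 of 22 kept genes positive, against 0.69 without PBS 2, where 25 were tested, and 0.06 without AKK 1. DESeq2 called 4 higher (Epcam, Cldn7, Dcdc2a and Hes1) and 1 lower, or 22.7% of those it tested, against 5.12% of all genes. Of these, Epcam, Cldn7 and Dcdc2a passed the filter only through their AKK libraries, so their calls give no support to a direction of the list. For Dcdc2a, a gene of primary cilia, 0 and 0 reads were counted in PBS against 48 and 22 in AKK, which is at least 10.3-fold higher against a floor of 3 reads in each PBS library (edgeR adjusted p = 0.182, DESeq2 adjusted p = 0.00571). Hes1, a target of Notch signalling, read 45.2 and 53.4 CPM in PBS against 89.8 and 82.2 CPM in AKK (edgeR adjusted p = 0.196, DESeq2 adjusted p = 0.0358).

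Hepatic progenitor and oncofetal genes had a median of -0.18, with 12 of 17 kept genes negative and 7 below both PBS libraries, where 24.7% of all genes lay below both. The median ran from -0.02 without AKK 1 to -0.46 without AKK 2. DESeq2 called 4 lower (Dlk1, H19, Igf2 and Lgr5), against 5.12% of all genes called in either direction. Of these, Dlk1 had no AKK read and passed the filter only through its PBS libraries, as did Gpc3. Both are among the 7 genes below both PBS libraries, so these 2 genes give no support to a direction of the list. For Gpc3, a proteoglycan of fetal liver, the PBS libraries held 39 and 16 reads and the AKK libraries 1 and 4 (log2 fold change -3.56, and -2.89 to -4.75 with 1 library left out, edgeR adjusted p = 0.207, DESeq2 adjusted p = 0.0996). Lgr5, a receptor of Wnt-responsive progenitor cells, read 1.56 and 3.301 CPM in PBS against 0.495 and 0.582 CPM in AKK (edgeR adjusted p = 0.219, DESeq2 adjusted p = 0.0205). Prom1 and Lgr5, both known from progenitor cells, therefore lay on opposite sides.

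**Figure D5:**
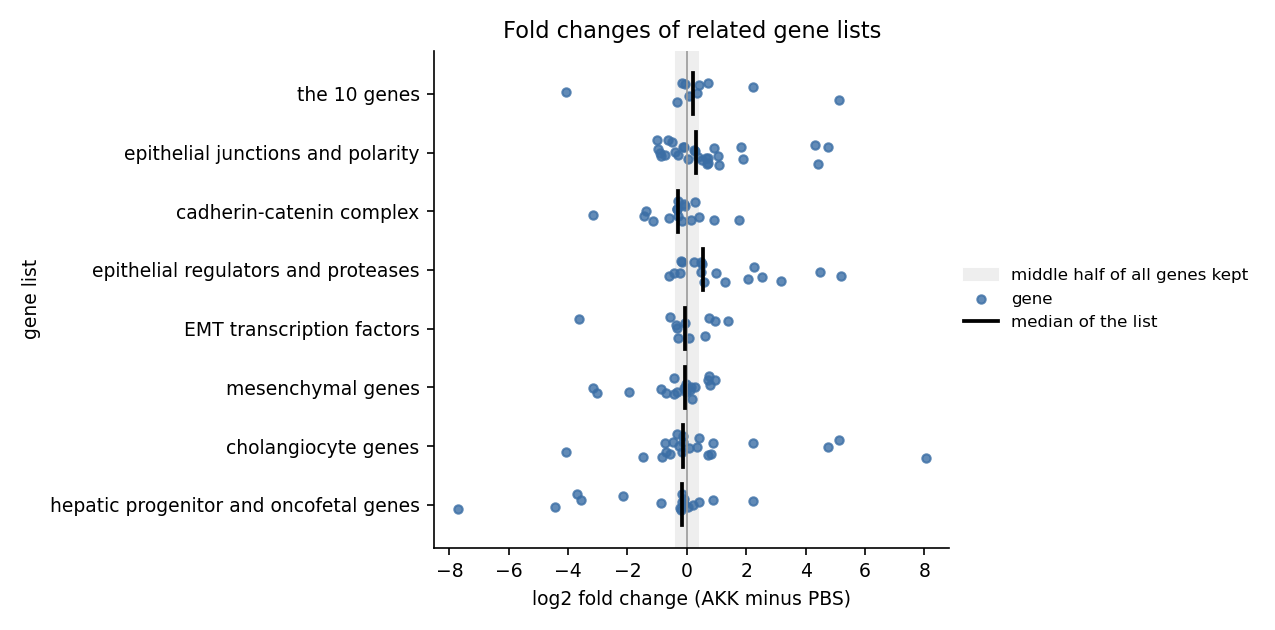
Log2 fold changes (AKK minus PBS) of the genes kept in each list, with a black bar at the list's median and a grey band from the lower to the upper quartile of all genes kept. Points are genes, and values of genes at 0 in a group (Dcdc2a and Dlk1) depend on the prior count of the fit. The medians lie between -0.28 and 0.55, while single genes such as Epcam lie far outside the band.

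Mesothelium, the covering of the liver, also makes Krt8, Krt18 and Krt19, and its markers were read beside them. The mesothelin gene Msln read 217 and 631 CPM in PBS and 222 and 232 CPM in AKK, and Bnc1 read 83.0 and 58.7 CPM in PBS and 41.2 and 67.5 CPM in AKK. Of the 10 mesothelial markers, 5 and 7 had under 10 reads in PBS 1 and PBS 2 and 6 and 6 in AKK. The uroplakin gene Upk3b, a defining mesothelial marker, had 5 reads in PBS 1 and 0 in each other library. PBS 2 was thus the library with the most Msln, Cdh1, Krt7 and Krt19, and the part of other cell types in these levels was not tested.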

How the data were processed

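The authors deposited raw read counts per gene, 1 table per library, laid out like the gene tables of STAR; STAR 2.5.2 and RSEM 1.2.31 are named in the submitters' processing notes, without a role. The build and annotation were not given in the sources used here. The column with 95.4 to 96.2% of the reads assigned by strand was used, and the 4 summary rows per library, holding reads of no gene, stayed out of totals and tests (8.97 to 12.3% unmapped, 4.20 to 6.66% multimapping, 11.4 to 13.5% outside genes, 1.18 to 1.37% ambiguous). Such counting takes reads that map to 1 place and 1 gene.

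Of 48526 identifiers, 48058 matched a symbol without the version. AKK was compared with PBS by the quasi-likelihood test of edgeR 4.0.16 (R 4.3.3, legacy form, two-sided), with TMM scaling, filterByExpr, a model with group alone, and Benjamini-Hochberg adjusted p under 0.05 across all genes passing the filter. Fold changes use a prior count of 0.125, their SE came from the F statistic, and within-library ratios use a prior count of 0.5. The test was tested on simulated counts. Alternatives were upper-quartile scaling, DESeq2 size factors, leaving the filter out, 1 CPM in 2 libraries, unstranded counts, the replicate number as a block, DESeq2 1.42.0, limma-voom (limma 3.58.1), the edgeR 4 form, a prior count of 2 for the ratios, and each library left out, with the lone library assumed to vary like the others. The members and lists were chosen with earlier results of these data known. Genes named are the 10, the 3 of each pathway list with the smallest p (up to 4 where any passed), keratins with at least 10 reads and the 3 most abundant of each marker list; others were chosen after their values were seen. Promoter windows came from RefSeq (GRCm38.p6). The result for 1 listed gene is not reported here.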

Additional observations from a re-analysis of the deposited data

How the results depend on the processing

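EdgeR called 1 gene of all those tested, 0 of the 10 genes and 0 listed pathway genes. Over all genes, the calls numbered 3 with upper-quartile scaling, 631 without the filter on low counts, 209 with the replicate number as a block, 878 in DESeq2, 0 in limma-voom and 4 in the edgeR 4 form. Leaving out 1 library gave 0 to 324 calls, with 279 without PBS 1, 324 without PBS 2 and 0 without AKK 1 or AKK 2. Of the 10 genes, 1 (Epcam) was called without the filter, 1 with the block and 1 in DESeq2, and 0 to 2 with a library left out (Krt7 and Epcam without PBS 1). Of the listed pathway genes, 16 were called without the filter, 3 with the block and 16 in DESeq2, and 0 to 8 with a library left out. Same-numbered libraries did not deviate together (Pearson r = -0.0369 over 17479 genes), and the labels do not say what a number shares, so the block pairs libraries by number only.

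Of the 10 genes, 5 kept their direction in 13 alternatives each, or 12 for Prom1. With 1 library left out, the log2 fold change ranged from -0.93 to 0.62 for Cdh1, -5.07 to 1.78 for Krt7, -0.042 to 0.80 for Krt8, -0.43 to 0.85 for Krt19 and -0.59 to 0.34 for Cdh2, all of which changed sign. Cdh1 and Krt7 turned without PBS 2 (0.62 and 1.78), Krt8 without PBS 1 (-0.042), Krt19 without PBS 1 (-0.43) or AKK 1 (-0.23), and Cdh2 without PBS 2 (0.34) or AKK 1 (0.32). The cause was not tested. The 18 other pathway genes with smallest p kept their direction in every alternative that gave a value. They were picked by p in these same libraries, so a kept direction was likely beforehand and is no further support. Upper-quartile scaling moved the median of all genes from 0.02 to 0.08. With 2 libraries per group, and 1 read each of Epcam and Prom1 in PBS 2, depth limits the PBS values of both genes.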

Other observations

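Markers of intestinal epithelium were read in every library. Of squamous epithelium, Krt5, Krt14, Krt1 and Trp63 were read mainly in PBS 1, whereas Krt15 was highest in PBS 2 and Krt13 in AKK 1. Cdx2, a transcription factor of intestinal epithelium, read 20.8 and 25.4 CPM in PBS 1 and PBS 2 and 32.7 and 24.4 CPM in AKK 1 and AKK 2, and the groups overlapped (edgeR adjusted p = 0.554). Vil1, an actin-bundling protein of brush borders, was uneven, at 8.45 and 91.2 CPM in PBS and 8.23 and 34.3 CPM in AKK. Lgals4, a galectin of gut epithelium, read 5.68 and 30.8 CPM in PBS and 12.5 and 11.8 CPM in AKK. Vil1, Lgals4, Cdh1 and Krt7 were all highest in PBS 2. The squamous transcription factor gene Trp63 had 24 reads in PBS 1 and 4, 1 and 0 in PBS 2, AKK 1 and AKK 2, the same library in which Krt5, Krt14 and Krt1 were highest. PBS 1 was also the library with the most skeletal muscle RNA.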
